A study of Mus musculus with 6 samples.

Results

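The genes described here encode the Fc receptors of myeloid cells and the paired receptors that signal beside them. They were taken as a list of 10 named genes: Fcgr1, Fcgr2b, Fcgr3, Fcgr4, Fcer1g, Tyrobp, Lilrb4a, Pirb, Sirpa and Cd300lf. The deposited transcripts were joined to 36047 genes of the mouse genome build GRCm38, and 20094 of these held at least 10 estimated counts in at least 3 libraries and were tested. All 10 receptor genes passed, and their lowest value in any library was 58 estimated counts, for Fcgr4 in DMSO replicate 3.

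The libraries came from the infarct area of hearts of female C57BL6 mice aged 12 weeks, taken 48 h after ischemia/reperfusion, in which a coronary artery is closed for a time and then reopened. Such tissue holds surviving cardiomyocytes, stromal cells and infiltrating leukocytes. There were 3 libraries from animals given LGK-974 and 3 from animals given its vehicle, DMSO, so both groups share strain, age, surgery and time. LGK-974 inhibits Porcupine, which lipid-modifies Wnt proteins so that cells can secrete them, and the study gave it by mouth every day from after the surgery. The treatment was systemic and not restricted to myeloid cells or to the heart. The comparison of the groups asks which transcripts differ in infarcted tissue when Wnt secretion is blocked. The labels number the libraries as replicates without naming the animals, and p-values measure the spread between these libraries.

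Fcγ receptors bind the constant part of IgG and let phagocytes take up and respond to antibody-coated material. The activating receptors Fcgr1, Fcgr3 and Fcgr4 have no signaling motif of their own and reach the cell surface with the Fc receptor γ chain, encoded by Fcer1g. That chain carries an immunoreceptor tyrosine-based activation motif (ITAM), which recruits the kinase Syk when its tyrosines are phosphorylated. Tyrobp encodes DAP12, an ITAM adaptor for other activating receptors such as the TREM family. Fcgr2b, Lilrb4a, Pirb, Sirpa and Cd300lf have inhibitory motifs (ITIMs) in their own tails, which recruit phosphatases such as SHP-1 (Ptpn6) and SHIP-1 (Inpp5d). In the injured heart these receptors are known mainly from monocytes, macrophages and neutrophils.

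The coding bases of these motifs are shown because they divide the 10 genes into activating and inhibitory ones. They were read from the GENCODE transcripts of GRCm38, after the stretch of each protein that a hydropathy window of 19 residues marked as crossing the membrane. The ITAM was searched as a tyrosine, any 2 residues and a leucine or isoleucine, given again after 6 to 8 residues. Fcer1g and Tyrobp held 1 match each, and capitals mark the codons of both tyrosines:
Fcer1g ITAM: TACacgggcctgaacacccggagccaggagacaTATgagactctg
Tyrobp ITAM: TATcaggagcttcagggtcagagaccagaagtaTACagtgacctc
The Fcer1g motif is coded in exons 4 and 5 of 5, within chr1:171229889-171230072 on the minus strand. The Tyrobp motif is also coded in exons 4 and 5 of 5, within chr7:30415670-30417382 on the plus strand. In both genes an intron lies inside the motif.

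The ITIM was searched as a serine, isoleucine, leucine, valine or threonine, any residue, a tyrosine, any 2 residues and a leucine, isoleucine or valine. Fcgr2b held 1 match, Lilrb4a 2, Pirb and Cd300lf 3 each and Sirpa 4. Fcgr1, Fcgr3 and Fcgr4 held neither motif, and Tyrobp held 1 ITIM match that shares its tyrosine with the ITAM. The match nearest the membrane is shown for each inhibitory receptor, with the tyrosine codon in capitals:
Fcgr2b ITIM: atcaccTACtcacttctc
Lilrb4a ITIM: attgtcTACgcccaggta
Pirb ITIM: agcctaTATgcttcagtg
Sirpa ITIM: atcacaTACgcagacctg
Cd300lf ITIM: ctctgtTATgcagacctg
They lie in exon 8 of 8 of Fcgr2b (chr1:170961071-170961088, minus strand), exon 7 of 8 of Lilrb4a (chr10:51496021-51496038, plus strand), exons 12 and 13 of 15 of Pirb (within chr7:3713862-3714103, minus strand), exon 9 of 9 of Sirpa (chr2:129629954-129629971, plus strand) and exon 5 of 6 of Cd300lf (chr11:115117648-115117665, minus strand).

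The libraries held 41579787 to 80398211 estimated counts, of which mitochondrial genes took 28.1 to 53.6%. DMSO replicate 1 stood apart. In it 99.3% of 1472 olfactory, vomeronasal and taste receptor genes, which the heart is not known for, held a count, against 59.0 to 88.0% in the other 5 libraries, and their median count was 95.3 against 8 to 33.0. Several fold changes, ratios and counts of list genes that move with this library are also given without it. The label of the tissue was checked with markers. In CPM, which are counts scaled to library size with TMM factors, 12 cardiomyocyte markers summed to 41270 to 66690, 10 fibroblast markers to 1728 to 6016 and 16 leukocyte markers to 211 to 480.

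With LGK-974, 8 of the 10 receptor genes lay higher in every library than in every DMSO library, namely all but Fcgr4 and Cd300lf. Of all tested genes, 10.7% did so in this direction and 7.27% in the other. The same 8 genes had an unadjusted p under 0.05 in edgeR's quasi-likelihood test, against 6.26% of all tested genes higher and 7.18% lower with LGK-974. The median log2 fold change was 0.79 over the 10 genes and −0.13 over all tested genes, of which the middle 50% lay between −0.84 and 0.19. After Benjamini-Hochberg adjustment over 20094 genes edgeR called none of them, and none of any kind (0% of all tested genes, lowest adjusted p = 0.368, with 2699 genes at an unadjusted p under 0.05). DESeq2, run on all genes with a count and adjusting over the 22238 that its own filter kept, called 3 of the 10, Lilrb4a, Fcgr1 and Sirpa, all higher, against 0.985% of these genes called higher and 0.432% called lower. On the genes that edgeR tested, DESeq2 called 5 of the 10, with Fcer1g and Pirb added, all higher, against 2.41% of 12688 genes called higher and 0.378% called lower. On simulated data with the spread of these libraries, edgeR missed most changes of the size seen here, and DESeq2 made more false calls than its threshold allows. The same held with the spread estimated without DMSO replicate 1. The simulation held only genes passing the count filter and gave each gene the same spread in every library, whereas here DMSO replicate 1 stood apart. It also changed only a small part of the genes and left out differences in composition between libraries. Its rates of missed and false calls need not hold for these data.

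Without DMSO replicate 1, the 8 genes again had an unadjusted p under 0.05 with edgeR and the median was 0.73. Of the 18547 genes tested without it, 7.12% were higher at this p, and their median was −0.02. DESeq2 without that library called 4 of the 10, Lilrb4a, Fcgr2b, Fcgr1 and Sirpa, all higher, against 2.04% of 13597 genes called higher and 0.36% called lower. In bulk tissue, more cells of a type and more RNA of these genes per cell cannot be told apart.

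**Figure D1:**
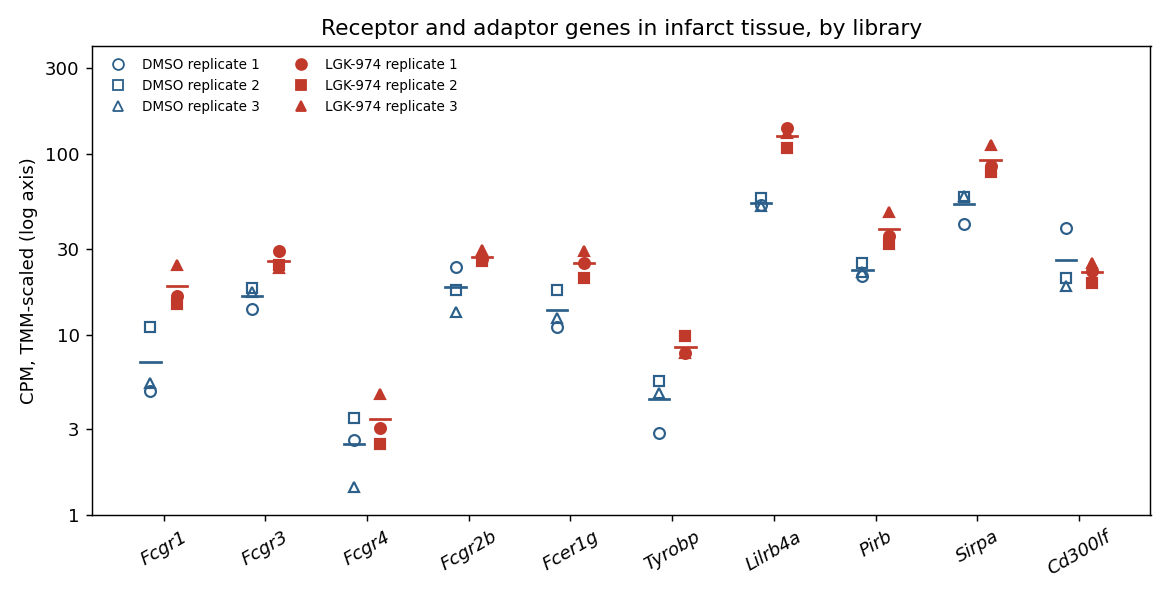
CPM of each receptor gene (log axis) in the 3 LGK-974 and the 3 DMSO libraries, each point a library and each bar a group mean. For 8 genes every LGK-974 point lies above every DMSO point, while for Fcgr4 and Cd300lf the points of the groups overlap.

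Fcgr1 (ENSMUSG00000015947, chr3:96282909-96293969) encodes FcγRI, the receptor with high affinity for monomeric IgG. It was measured at 16.4, 14.7 and 24.5 CPM in LGK-974 replicates 1, 2 and 3 and at 4.88, 10.98 and 5.43 CPM in DMSO replicates 1, 2 and 3. The groups did not overlap, and DMSO replicate 2 lay nearest to the LGK-974 libraries. The fold change was 2.61 (log2 1.38, standard error 0.352, edgeR unadjusted p = 0.00468, adjusted p = 0.368, DESeq2 adjusted p = 0.0256). It was the largest of the 10 genes, but without DMSO replicate 1 it was 1.19 on the log2 scale, below that of Lilrb4a.

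Fcgr3 (ENSMUSG00000059498, chr1:171051174-171064935) encodes FcγRIII, a low-affinity activating receptor. It stood at 29.2, 24.5 and 23.5 CPM with LGK-974 and at 13.9, 18.2 and 17.3 CPM with DMSO. All LGK-974 libraries lay above all DMSO libraries, with a log2 fold change of 0.64 (standard error 0.168, edgeR unadjusted p = 0.00556, adjusted p = 0.368). Fcgr4 (ENSMUSG00000059089, chr1:171018920-171029761) encodes FcγRIV, which binds IgG2 subclasses with intermediate affinity. It was the lowest of the genes, at 3.05, 2.46 and 4.68 CPM with LGK-974 and 2.61, 3.43 and 1.43 CPM with DMSO. The groups overlapped, and the log2 fold change of 0.45 (standard error 0.425, edgeR adjusted p = 0.599) was close to its standard error.

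Fcer1g (ENSMUSG00000058715, chr1:171229572-171234365), the γ chain on which these activating receptors depend, was measured at 24.9, 20.7 and 29.2 CPM with LGK-974. With DMSO it stood at 11.01, 17.6 and 12.4 CPM, below all LGK-974 libraries. Its log2 fold change was 0.87 (standard error 0.223, edgeR unadjusted p = 0.00496, adjusted p = 0.368). Tyrobp (ENSMUSG00000030579, chr7:30413760-30417585) stood at 7.92, 9.89 and 7.94 CPM with LGK-974 and at 2.84, 5.52 and 4.77 CPM with DMSO. The groups did not overlap here either, with a log2 fold change of 0.97 (standard error 0.284, edgeR unadjusted p = 0.00968, adjusted p = 0.368). Both ITAM adaptors thus lay higher in all LGK-974 libraries.

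Fcgr2b (ENSMUSG00000026656, chr1:170958617-170976547) encodes FcγRIIB, the inhibitory receptor for IgG. It was measured at 26.3, 25.5 and 29.4 CPM with LGK-974 and at 23.8, 17.7 and 13.4 CPM with DMSO. The gap between the groups was small, from 23.8 to 25.5 CPM. The log2 fold change was 0.57 (standard error 0.218, edgeR unadjusted p = 0.0328, adjusted p = 0.368), the smallest of the 8 genes, and without DMSO replicate 1 it was 0.82. Its unadjusted p in edgeR was 0.0984 without DMSO replicate 2, 0.0776 without LGK-974 replicate 1 and 0.0534 without LGK-974 replicate 3.

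Lilrb4a (ENSMUSG00000112148, chr10:51490956-51496611) encodes an inhibitory receptor of the leukocyte immunoglobulin-like family, also known as gp49B. It stood at 140.3, 108.0 and 131.5 CPM with LGK-974 and at 52.4, 57.4 and 51.8 CPM with DMSO. The DMSO libraries lay close together, and the lowest LGK-974 library was far above them. The fold change was 2.35 (log2 1.23, standard error 0.167, edgeR unadjusted p = 9.2e-05, adjusted p = 0.368, DESeq2 adjusted p = 4.3e-07). By p it ranked 2 among all tested genes, and without DMSO replicate 1 the log2 fold change was again 1.23.

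Pirb (ENSMUSG00000058818, chr7:3711409-3720391) encodes PIR-B, an inhibitory receptor for MHC class I molecules. It was measured at 35.4, 31.7 and 48.0 CPM with LGK-974 and at 21.1, 24.9 and 22.4 CPM with DMSO, without overlap. Its log2 fold change was 0.75 (standard error 0.189, edgeR unadjusted p = 0.00433, adjusted p = 0.368). In the estimated counts per transcript, this difference did not extend to the annotated coding transcript of Pirb.

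Sirpa (ENSMUSG00000037902, chr2:129592835-129632228) encodes SIRPα, the receptor through which CD47 restrains phagocytosis. It stood at 86.3, 80.2 and 113.2 CPM with LGK-974 and at 41.0, 58.2 and 59.2 CPM with DMSO. On the log2 scale the difference was 0.82 (standard error 0.215, edgeR unadjusted p = 0.00541, adjusted p = 0.368, DESeq2 adjusted p = 0.0409). Without DMSO replicate 1 it was 0.68. The groups did not overlap. Sirpa is also known from cells other than leukocytes, such as neurons and smooth muscle.

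Cd300lf (ENSMUSG00000047798, chr11:115116214-115133992) encodes CLM-1, an inhibitory receptor that binds phospholipids such as phosphatidylserine. It was measured at 22.6, 19.3 and 24.9 CPM with LGK-974 and at 38.9, 20.5 and 18.7 CPM with DMSO. The groups overlapped, and the highest library was DMSO replicate 1. The log2 fold change was −0.22 (standard error 0.286, edgeR adjusted p = 0.699), and its sign turned to 0.20 (standard error 0.162, edgeR adjusted p = 0.678) without DMSO replicate 1.

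**Figure D2:**
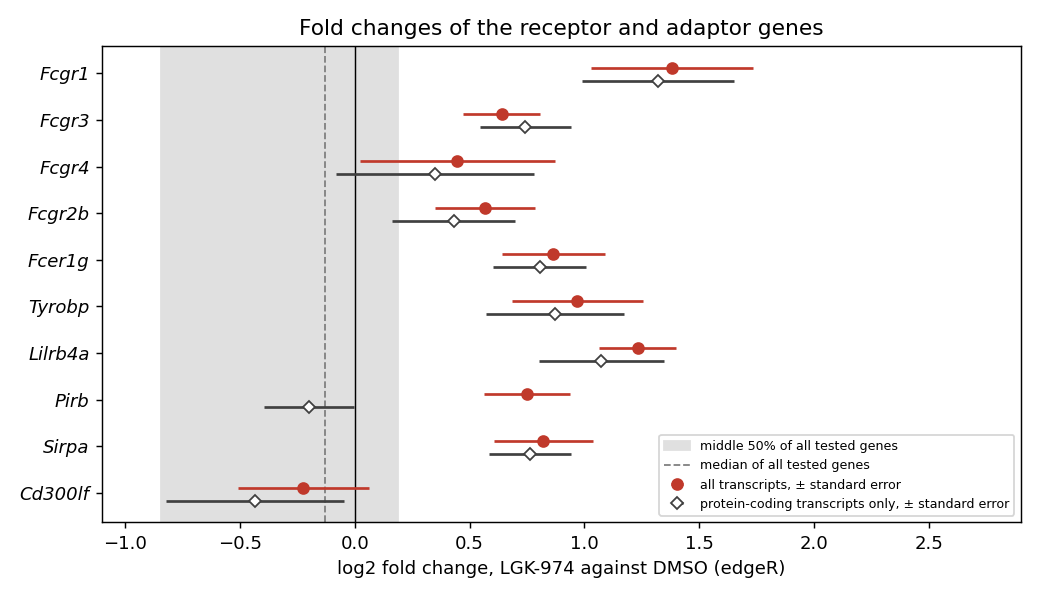
Log2 fold change of each receptor gene, LGK-974 against DMSO, from edgeR, over all transcripts (filled) and over protein-coding transcripts only (open), with standard errors as lines. The grey band holds the middle 50% of all tested genes, −0.84 to 0.19, and the dashed line their median of −0.13. Pirb lies at 0.75 over all transcripts and at −0.20 over coding transcripts.

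Levels of different genes were compared in TPM, which the authors scaled to transcript length and to the library. From the highest to the lowest mean over both groups the order was Lilrb4a, Fcer1g, Sirpa, Fcgr3, Tyrobp, Cd300lf, Fcgr2b, Pirb, Fcgr1 and Fcgr4. Lilrb4a had a TPM of 110.4 ± 50.7 (SD, n = 3) in the LGK-974 group and 36.1 ± 7.31 (SD, n = 3) in the DMSO group, and Fcgr4 had 3.84 ± 2.83 (SD, n = 3) and 1.95 ± 0.885 (SD, n = 3). The TPM of each of the 10 genes was highest in LGK-974 replicate 3, where mitochondrial genes took 28.1% of the counts, the lowest share of the 6 libraries. Neighbours in the order were therefore compared within libraries. Lilrb4a lay above Fcer1g, Sirpa above Fcgr3 and Pirb above Fcgr1 in 6 of 6 libraries. Fcer1g lay above Sirpa, Fcgr3 above Tyrobp, Tyrobp above Cd300lf and Fcgr1 above Fcgr4 in 5 of 6. Cd300lf lay above Fcgr2b in 3 of 6 and Fcgr2b above Pirb in 4 of 6, so the levels of these 3 genes were not ordered beyond their spread. The TPM of a gene sums all its annotated transcripts, and those retaining introns held 73.0 to 86.2% of the counts of Lilrb4a. Its coding transcript Lilrb4a-202 stood at 33.6, 16.1 and 26.5 TPM with LGK-974 and at 6.86, 11.4 and 9.66 TPM with DMSO. That was below Fcer1g-201 in each library, at 51.2, 30.3 and 96.5 TPM with LGK-974 and at 14.9, 33.6 and 24.1 TPM with DMSO.

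Ratios within a library set activating against inhibitory Fcγ receptors without a scale between libraries. The TPM of Fcgr3 over that of Fcgr2b was 1.94, 1.55 and 1.28 with LGK-974 and 1.42, 2.06 and 2.41 with DMSO. The groups overlapped through DMSO replicate 1 alone, and the other DMSO libraries lay above all LGK-974 libraries. The summed TPM of Fcgr1, Fcgr3 and Fcgr4 over that of Fcgr2b was 2.35 ± 0.301 (SD, n = 3) under LGK-974, and under DMSO it was 2.66 ± 0.656 (SD, n = 3). These groups also overlapped through DMSO replicate 1 alone, at 1.91, while the other DMSO libraries, at 2.98 and 3.10, lay above the highest LGK-974 library at 2.70. Fcer1g stood at 1.55 ± 0.151 (SD, n = 3) times the summed TPM of these 3 receptors under LGK-974 and at 1.44 ± 0.119 (SD, n = 3) times under DMSO. Over all 6 libraries none of these ratios, that of Fcer1g to Tyrobp included, separated the groups. Without DMSO replicate 1 the first 2 did, lower with LGK-974. Both divide by the TPM of Fcgr2b, which depends on how its counts were split between transcripts of 3544 and 1462 bases. The log2 fold change of Fcgr2b in edgeR was 0.92 with counts scaled from TPM and 0.57 with the summed counts. For Fcgr3 it was 0.64 in both. In summed counts neither of these 2 ratios separated the groups, with or without DMSO replicate 1. For Fcgr3 over Fcgr2b, LGK-974 replicate 1 held 2477 against 2236 counts. DMSO replicate 2 held 882 against 856, a lower ratio. The separation without DMSO replicate 1 was thus seen in TPM and not in counts.

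The marker genes of leukocytes also lay higher with LGK-974. Of 16 leukocyte markers, 14 had an unadjusted edgeR p under 0.05 and were higher with LGK-974, 0 were lower and the median log2 fold change was 0.86. Their summed level was 344 to 480 CPM with LGK-974 and 211 to 262 CPM with DMSO. The 4 with the smallest p were Cybb (log2 0.96), which encodes the catalytic subunit of the phagocyte oxidase, Arhgdib (0.86), Cd53 (1.07) and Spi1 (1.03), which encodes the myeloid transcription factor PU.1. Without DMSO replicate 1, 12 of the 16 had an unadjusted edgeR p under 0.05.

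Of 18 monocyte and macrophage markers, 12 had an unadjusted edgeR p under 0.05 and were higher, 0 were lower and the median was 0.81. Their summed level was 879 to 1014 CPM with LGK-974 and 476 to 649 CPM with DMSO. Those with the smallest p were the lysozyme gene Lyz2 (log2 1.30), the perforin-like Mpeg1 (1.19), Adgre1 (0.88), which encodes F4/80, and the lysosomal Cd68 (1.06). Without DMSO replicate 1 the count was 14 of 18.

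Markers of the other cell types were counted in the same way. Neutrophil markers had 0 of 7 tested genes higher and 1 lower (Cxcr2, log2 −1.02) at an unadjusted edgeR p under 0.05. Cxcr2 stood at 50.3 CPM in DMSO replicate 1 and at 16.6 and 17.2 CPM in the other DMSO libraries, and without that library 1 of 6 neutrophil markers (Mmp8, log2 1.63, named after its value was seen) was higher and 0 lower, with a median of 0.06. Their summed level was 34.5 to 50.6 CPM with LGK-974 and 44.6 to 83.5 with DMSO. Their defining genes Ly6g, Camp, Ltf, Ngp and Retnlg did not reach the filter on counts. Of 8 mast cell and basophil, 11 T and NK cell and 10 B cell markers, 0 passed in either direction, with medians of −0.83, −1.14 and −0.10. In each of these lists DMSO replicate 1 had the highest sum, and without it the medians were −0.13, −0.15 and 0.45. Endothelial markers had 0 of 10 genes in either direction, and cardiomyocyte markers had 1 of 12 higher (Actc1, log2 0.86) with a median of −0.43. Without DMSO replicate 1, 1 cardiomyocyte marker was higher (Actc1), 1 lower (Myl3, named after its value was seen) and their median was −0.53. Fibroblast markers had 4 of 10 higher (Postn, Col3a1, Col1a2 and Col1a1) and 0 lower, with 3540 to 6016 CPM in sum with LGK-974 and 1728 to 2546 with DMSO, and without DMSO replicate 1 again 4 were higher. By flow cytometry of whole hearts from other animals at the same time, the study reported fewer leukocytes, myeloid cells and inflammatory monocytes with LGK-974. The markers here measure RNA of infarct tissue and not cell numbers. The part of leukocyte content in the receptor values was not tested.

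The receptors were set beside leukocyte marker RNA by subtracting the mean log2 CPM of the 16 leukocyte markers in each library. Relative to these markers Fcgr1 stood at 0.14, 0.17 and 0.37 on the log2 scale with LGK-974 and at −0.75, 0.10 and −0.59 with DMSO, so the groups did not overlap. Lilrb4a stood at 3.24, 3.04 and 2.79 with LGK-974 and at 2.68, 2.48 and 2.67 with DMSO, again without overlap. Cd300lf was lower relative to the markers in all LGK-974 libraries, at 0.61, 0.56 and 0.39 against 2.24, 1.001 and 1.198 with DMSO. For the other 7 genes the groups overlapped, and the mean difference, LGK-974 minus DMSO, lay between −0.32 for Fcgr4 and 0.21 for Tyrobp. The markers themselves lay higher with LGK-974 (median log2 fold change 0.86), so subtracting them moves every gene down in these libraries relative to DMSO. The share of all tested genes that separate on this scale was not computed. With 3 libraries against 3, an exact permutation test cannot give a p below 0.1, so these relative values are descriptions.

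**Figure D3:**
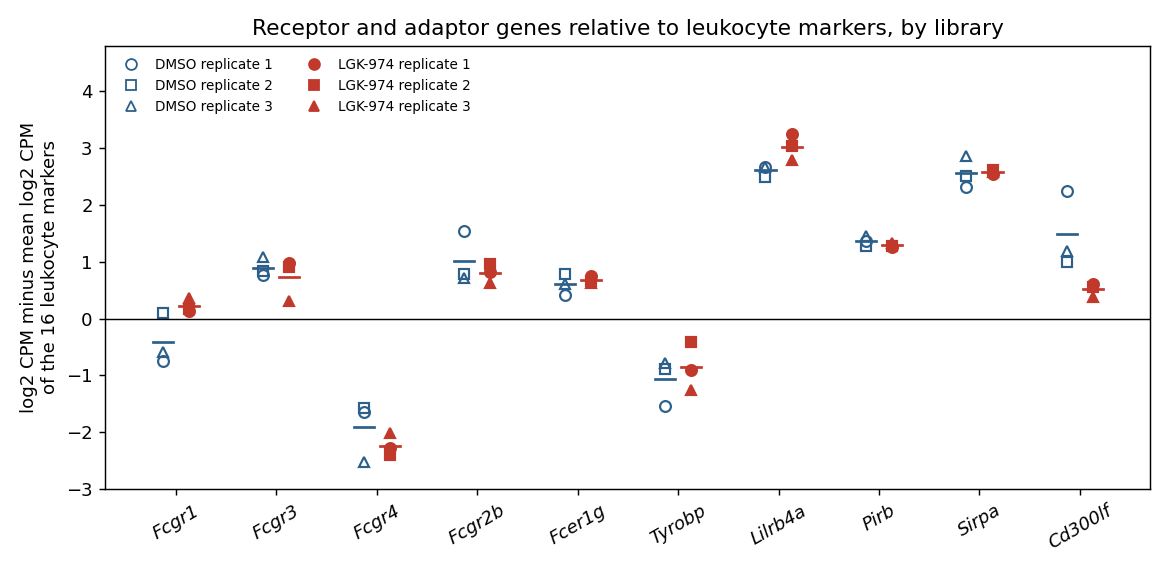
Log2 CPM of each receptor gene minus the mean log2 CPM of 16 leukocyte markers of the same library, by library, with group means as bars. The groups separate for Fcgr1 and Lilrb4a, higher with LGK-974, and for Cd300lf, lower with LGK-974.

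Reads of close relatives are divided between genes by the program that counted them, so the sequence that the receptors share with other genes was measured. Lilrb4a shares 1846 of its 5227 exon bases (35.3%) with the coding gene Gm49339 on the same strand. Of the stretches of 31 bases in its coding transcripts, 97.3% also occur in transcripts of another gene, 94.9% in Gm49339 and 41.9% in Lilr4b, its neighbour in the family, also known as gp49A. Gm49339 stood at 27.7, 19.7 and 29.6 CPM with LGK-974 and at 1.63, 10.9 and 14.9 CPM with DMSO (log2 1.49, standard error 0.639, edgeR adjusted p = 0.368). Lilr4b stood at 64.6, 53.4 and 73.6 CPM with LGK-974 and at 22.3, 34.6 and 31.4 CPM with DMSO (log2 1.12, standard error 0.214, edgeR adjusted p = 0.368, DESeq2 adjusted p = 0.00282). All 3 genes lay higher in every LGK-974 library. Summed, they held 232.7, 181.2 and 234.7 CPM with LGK-974 and 76.4, 102.9 and 98.1 CPM with DMSO, a log2 fold change of 1.23, which does not depend on how reads were divided between them.

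Pirb shares 44.0% of its stretches of 31 bases with other genes, mainly the activating PIR-A genes of the same cluster. When the 9 genes that share at least 500 such stretches with it were added to it, the sum was 45.4, 39.9 and 56.5 CPM with LGK-974 and 33.1, 33.3 and 28.4 CPM with DMSO, a log2 fold change of 0.58. Fcgr3 shares 13.4% of its stretches, all with Fcgr2b, and Fcgr1, Fcer1g and Tyrobp share none. The longest identical coding run of Fcgr2b and Fcgr3 is 129 bases, from which a read cannot be placed in either gene by its sequence. It is shown because it joins the activating and the inhibitory receptor:
Fcgr2b and Fcgr3: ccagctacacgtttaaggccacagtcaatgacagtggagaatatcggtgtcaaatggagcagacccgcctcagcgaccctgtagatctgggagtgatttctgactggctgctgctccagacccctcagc
It lies in exons 3 and 4 of both genes, within chr1:170966674-170968081 for Fcgr2b and chr1:171054167-171057792 for Fcgr3, on the minus strand. The antisense genes that overlap exons of Lilrb4a and Fcgr2b, Gm40645 and Gm38204, have no transcript in the tables used here and were not analysed.

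Within genes, the estimated counts of the annotated transcripts were compared as shares. For 21 transcripts of 9 genes that held at least 10% of their gene on average, 4 shares did not overlap between the groups, all of them in Fcgr2b and Pirb. Fcgr4 has only 1 annotated transcript. Each of the 4 had an exact two-sided permutation p of 0.1, the smallest that 3 against 3 can give, and 0.525 after Benjamini-Hochberg adjustment over the 21 transcripts. In both genes a coding transcript had a lower share and another transcript a higher one, and shares of the same gene depend on each other. The share of all transcripts that separate in this way was not computed, so these values are descriptions.

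For Fcgr2b, the shorter coding transcript Fcgr2b-202 held 28.3, 29.0 and 38.9% of the gene with LGK-974 and 4.72, 14.2 and 22.0% with DMSO. In CPM it stood at 7.44, 7.42 and 11.4 with LGK-974 and at 1.12, 2.51 and 2.94 with DMSO. The longer transcript Fcgr2b-201 stood at 15.4, 11.9 and 13.7 CPM with LGK-974 and at 19.3, 11.3 and 8.48 CPM with DMSO, and these overlapped. These coding sequences differ only by exon 6 of Fcgr2b-201, 141 bases that code 47 residues of the cytoplasmic tail. This exon marks the FcγRIIB1 form, known from B cells, and its absence the FcγRIIB2 form, known from myeloid cells. It lies at chr1:170963325-170963465 on the minus strand and reads, in the coding direction:
Fcgr2b exon 6: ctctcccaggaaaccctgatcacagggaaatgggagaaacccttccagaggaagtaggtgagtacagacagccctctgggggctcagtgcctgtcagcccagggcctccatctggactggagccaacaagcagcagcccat
The transcripts also differ behind the last codon, with 2400 bases in Fcgr2b-201 and 459 in Fcgr2b-202, and which of these stretches carried the reads was not tested.

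Pirb-201, the only annotated coding transcript of Pirb, held 33.4, 32.4 and 27.4% of the gene with LGK-974 and 67.9, 47.9 and 51.9% with DMSO. Its level barely differed, at 11.8, 10.3 and 13.1 CPM with LGK-974 and 14.3, 11.9 and 11.7 CPM with DMSO. The retained-intron transcript Pirb-202 stood at 16.3, 15.0 and 19.3 CPM with LGK-974 and at 0, 6.44 and 6.21 CPM with DMSO, without overlap, and only DMSO replicate 1 was at 0. Counted over coding transcripts alone, Pirb had a log2 fold change of −0.20 (standard error 0.197, edgeR adjusted p = 0.607). As the counts were divided between transcripts, the higher gene total with LGK-974 lay in those annotated as retaining introns. Of the stretches of 31 bases in the coding transcript of Pirb, 45.4% also occur in transcripts of other genes. Which stretches of Pirb carried the reads was not tested.

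Retained-intron transcripts held even more of Lilrb4a, 73.0 to 86.2% of its counts, and its coding transcripts held 12.0 to 22.9%. Unlike for Pirb, both kinds lay higher with LGK-974. The coding transcript Lilrb4a-202 stood at 32.2, 21.6 and 15.8 CPM with LGK-974 and at 9.92, 11.8 and 9.51 CPM with DMSO, and coding transcripts together gave a log2 fold change of 1.07 (standard error 0.271, edgeR unadjusted p = 0.00446, adjusted p = 0.263). For Fcgr2b the value over coding transcripts was 0.43 (standard error 0.270, edgeR unadjusted p = 0.151). For the other 7 genes it lay within 0.21 of the value over all transcripts on the log2 scale. In this count 6 of the 10 genes had an unadjusted edgeR p under 0.05, all higher, against 7.26% of 17179 tested genes higher.

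**Figure D4:**
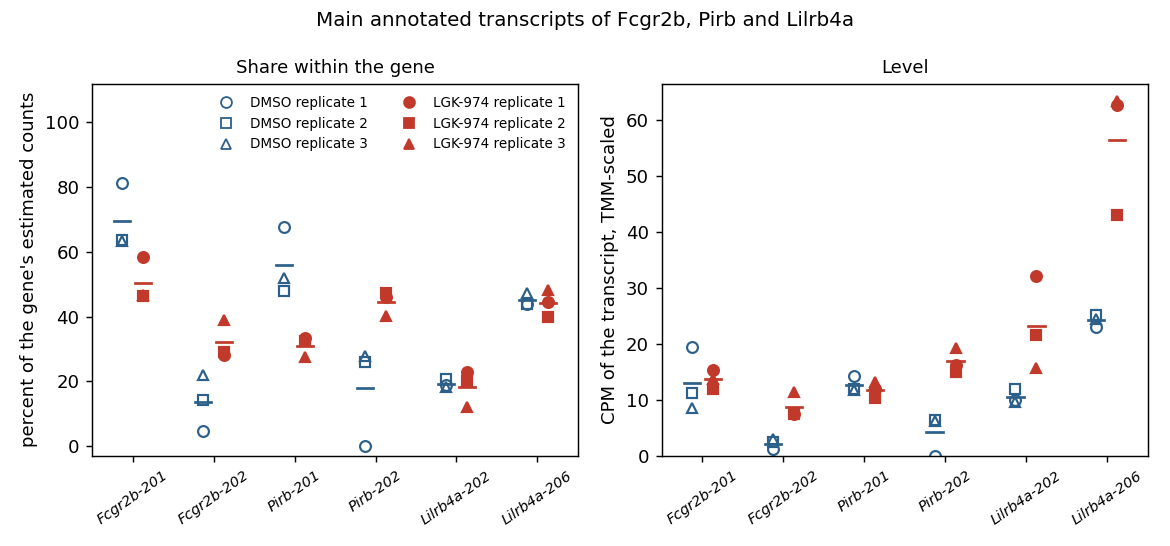
Share of the gene in percent (left) and level in CPM (right) of the main annotated transcripts of Fcgr2b, Pirb and Lilrb4a, each point a library. The share of Pirb-202 is 40.2 to 47.2% with LGK-974 and 0 to 27.7% with DMSO, while the level of Pirb-201 overlaps between the groups.

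The promoters were compared because 8 of the 10 genes lay higher together and PU.1, encoded by Spi1, is a known regulator of myeloid receptor genes. Its core site GAGGAA, or TTCCTC on the other strand, was counted in the 250 bases before the gene start in the RefSeq promoters of GRCm38.p6, which held 7 of the 10 genes. It occurred in 5 of these 7, Fcgr1, Fcgr3, Fcgr4, Pirb and Cd300lf, and in 23.3% of 32851 promoters. A gene was counted if any of its promoter entries held the site, while the 23.3% is per entry. Of the genes with the site, Fcgr4 and Cd300lf did not separate the groups. Fcgr2b and Fcer1g, which did, lacked the site. A part of PU.1 in the receptor values was not tested. The 60 bases before the start are shown for the 3 genes where this stretch holds the letters and no annotated exon, with the match in capitals:
Fcgr1 promoter: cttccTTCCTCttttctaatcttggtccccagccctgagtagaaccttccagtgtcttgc
Fcgr3 promoter: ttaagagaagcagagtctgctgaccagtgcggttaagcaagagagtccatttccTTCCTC
Cd300lf promoter: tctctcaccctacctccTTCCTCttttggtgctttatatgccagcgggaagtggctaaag
They lie at chr3:96293970-96294029, chr1:171059404-171059463 and chr11:115133993-115134052, all read along the minus strand, and the Fcgr3 stretch falls in an intron of a longer annotated transcript. The letters are a match and not a measured binding site.

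The ligands of these receptors were measured in the same libraries. Fn1, the fibronectin gene, was among the list's highest and stood at 848, 587 and 1705 CPM with LGK-974 and 233, 340 and 346 CPM with DMSO (log2 1.77, edgeR unadjusted p = 0.00289, adjusted p = 0.368, DESeq2 adjusted p = 4.6e-04). Fibronectin is a reported ligand of Lilrb4a. B2m (log2 0.66), H2-D1 (0.57) and H2-K1 (0.55), which encode the MHC class I molecules that PIR-B binds, were each higher in all LGK-974 libraries with an unadjusted edgeR p under 0.05. Cd47, the ligand of SIRPα, stood at 64.0, 65.6 and 58.9 CPM with LGK-974 and 43.7, 53.5 and 55.8 CPM with DMSO (log2 0.30, edgeR unadjusted p = 0.0946). Apoe, another reported ligand in the LILRB family, had a log2 fold change of 0.41 (edgeR unadjusted p = 0.0621).

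IgG itself was scarcely transcribed in this tissue. Ighg2b reached at most 1.03 CPM and Ighg2c at most 0.628 CPM in any library, Igkc at most 1.16 CPM and Ighm at most 5.14 CPM, and Ighg1, Ighg3 and Igha did not reach the filter on counts. Crp, a pentraxin that binds Fcγ receptors, had a log2 fold change of −1.47 (edgeR unadjusted p = 0.0441), with overlapping groups and its highest value, 24.98 CPM, in DMSO replicate 1 and 4.03 to 7.43 CPM in the other DMSO libraries. In sum, 4 of 11 tested ligands were higher and 1 lower at an unadjusted edgeR p under 0.05, with a median of 0.43, and without DMSO replicate 1 these were 3 and 0.

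Of the molecules that transmit ITAM and ITIM signals, 34 were tested, and 21 were higher and 1 lower with LGK-974 at an unadjusted edgeR p under 0.05, with a median log2 fold change of 0.65. The 4 with the smallest p were the phospholipase gene Plcg2 (log2 0.77, standard error 0.164), the adaptor Skap2 (0.70, 0.164), the PI3-kinase adaptor Pik3ap1 (1.07, 0.259) and the adaptor Fyb (0.87, 0.216). DESeq2 called Pik3ap1, Fyb and Ptpn6, all higher. Named after their values were seen, the Src-family kinase genes Fgr (1.17) and Lyn (0.62) act early on ITAMs and ITIMs, and the phosphatase genes Ptpn6 (1.10) and Inpp5d (0.63) act behind ITIMs. Syk, the kinase that binds phosphorylated ITAMs, stood at 41.4, 41.2 and 42.5 CPM with LGK-974 and at 26.0, 37.8 and 33.6 CPM with DMSO (log2 0.36, standard error 0.171, edgeR unadjusted p = 0.0694). The phosphatase gene Ptpn11, which encodes SHP-2, stood at 80.5, 89.5 and 78.2 CPM with LGK-974 and at 92.5, 108.4 and 111.3 CPM with DMSO (log2 −0.33, standard error 0.158, edgeR unadjusted p = 0.0711). The groups did not overlap for either gene. The lower gene was Pik3r1 (−0.63), the widely expressed regulatory subunit of PI3-kinase, at 133, 154 and 100.2 CPM with LGK-974 and 177, 174 and 248 CPM with DMSO. Without DMSO replicate 1, 21 were higher and 2 lower, Pik3r1 and Ptpn11. Several of these genes, such as Ptpn6 and Inpp5d, are expressed mainly in leukocytes, whose summed markers were also higher in each LGK-974 library than in each DMSO library.

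Other receptors of the same families were described by the same counts. Of 25 other activating paired receptors and adaptors, 5 were higher and 1 lower at an unadjusted edgeR p under 0.05, with a median of 0.28. Clec4d, a receptor for mycobacterial glycolipid that couples to the γ chain, stood at 12.7, 13.6 and 10.9 CPM with LGK-974 and 4.02, 5.13 and 6.26 CPM with DMSO (log2 1.27, standard error 0.222, edgeR adjusted p = 0.368, DESeq2 adjusted p = 0.00580). Cd300ld, an activating relative of Cd300lf, stood at 18.6, 17.4 and 20.4 CPM with LGK-974 and 9.93, 10.6 and 11.4 CPM with DMSO (log2 0.82, standard error 0.152, edgeR adjusted p = 0.368, DESeq2 adjusted p = 0.0256). Cd300c2 (log2 1.01), the DAP12-coupled Clec5a (0.64) and, named after its values were seen, Cd300lb (0.92) were the other 3 higher genes. The lower gene was Siglech (−1.70), a marker of plasmacytoid dendritic cells that was highest in DMSO replicate 1. Without that library 8 of the 24 genes that could be fitted were higher, 0 lower and the median was 0.65.

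Of 18 other inhibitory receptors, 3 were higher and 1 lower, with a median of −0.15. Pilra stood at 5.82, 4.93 and 8.35 CPM with LGK-974 and 2.94, 2.48 and 2.60 CPM with DMSO (log2 1.25, standard error 0.281, edgeR adjusted p = 0.368, DESeq2 adjusted p = 0.0400). It shares 15.1% of its exon bases with Zcwpw1 on the other strand. Cd72 (0.80), which shares 41.6% of its exon bases with Tesk1 on the other strand, and Vsir (0.48), which encodes the checkpoint receptor VISTA, were the other higher genes. Siglecf (−1.56), a receptor of eosinophils, was lower and highest in DMSO replicate 1. Without that library 4 were higher, 0 lower and the median was 0.27.

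Of 10 other Fc receptors tested, 1 was higher and 1 lower, with a median of −0.45. Fcrls, a scavenger-like relative of the Fc receptors, stood at 4.26, 4.44 and 12.8 CPM with LGK-974 and 1.41, 3.60 and 3.49 CPM with DMSO (log2 1.34, edgeR unadjusted p = 0.0390, adjusted p = 0.368). Fcrl6 was lower (−3.36), at 3.67 CPM in DMSO replicate 1 and 0.106 to 0.467 CPM in the other libraries. Pigr and Ms4a2, the genes with the next smallest p, also had their highest value in DMSO replicate 1. Without that library 0 of the 7 genes that could be fitted had an unadjusted edgeR p under 0.05 and the median was 0.13.

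**Figure D5:**
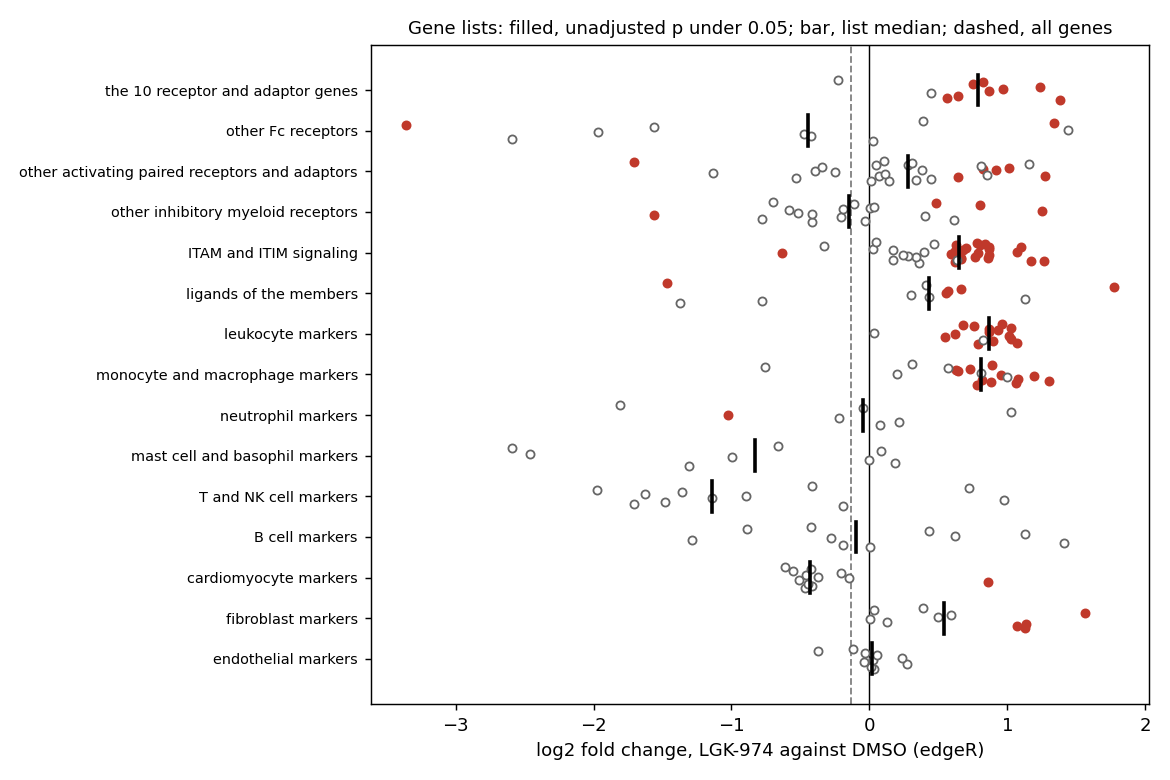
Log2 fold change, LGK-974 against DMSO, of every tested gene in each list, from edgeR, with the median of each list. The medians of the receptor genes (0.79), the leukocyte markers (0.86), the monocyte and macrophage markers (0.81) and the ITAM and ITIM signaling genes (0.65) lie above the median over all tested genes (−0.13).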

How the data were processed

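RNA of the infarct area was depleted of ribosomal RNA and made into libraries with the TrueSeq RNA Access kit, per the labels. The authors counted reads with Kallisto on Ensembl transcripts of GRCm38, and its version is not given in the sources used here. They deposited, per library, estimated counts, which divide a read between the transcripts it matches, and TPM, scaled to transcript length and library. Whether they used strand is not given there.

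Here 98.6% of 118489 transcripts were joined to GENCODE vM21 genes of GRCm38. Estimated counts were summed per gene, rounded and tested with edgeR 4.0.16 (quasi-likelihood, TMM, R 4.3.3), treatment as the only factor, on the genes that reached 10 counts in 3 or more libraries, with Benjamini-Hochberg adjustment and a threshold of 0.05. CPM uses TMM factors of 0.816 to 1.40. Log2 CPM in the correlations has a prior count of 2, and log2 CPM relative to the leukocyte markers has none. TPM served for levels between genes and ratios. DESeq2 1.42.0 and limma 3.58.1 gave alternatives. The planned DESeq2 fit took all genes with a count. The scripts were tested on simulated data. Tables and figures used Python 3.11.15, NumPy 2.4.6, pandas 2.3.3 and matplotlib 3.10.9.

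Depth was 41579787 to 80398211 estimated counts per library, and the 3 libraries per group limited the precision. The receptor genes and all lists were chosen with earlier results of these data known. Besides the 10 receptor genes, the text names up to 4 genes of each list with the smallest p, every tested ligand, genes with overlapping exons and the 5 genes with the most similar profile. The alternatives on protein-coding transcripts, on genes sharing sequence and of DESeq2 on the filtered genes and without DMSO replicate 1 were added after the data were seen, as were the fold changes of lists without DMSO replicate 1. The list genes Pira1, Pira6, Pira11 and Lilrb4b were not matched under these symbols, and the last is annotated as Lilr4b.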

Additional observations from a re-analysis of the deposited data

How the results depend on the processing

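Of 180 fold changes of single receptor genes under 18 alternatives, 161 kept their direction and their side of the threshold, 16 passed the threshold under an alternative and 3 changed sign. The sign changes were Pirb over protein-coding transcripts only (−0.20) and Cd300lf without DMSO replicate 1 (0.20, with a range of −0.39 to 0.20 over each library left out, and 0.19 in DESeq2), and the cause was not tested. Over all genes edgeR called 0, DESeq2 on all genes with a count called 315, DESeq2 on the genes passing the filter 354, DESeq2 without DMSO replicate 1 326, and 1206 were called by edgeR with no filter on counts. Leaving out each library in turn gave 0 to 2 calls, and the 2, without DMSO replicate 1, were Gm45837 and Rpl17-ps3, both with 0 counts in the other DMSO libraries. Of the receptor genes edgeR called 0, these DESeq2 fits 3, 5 and 4 and edgeR without a filter 4 (Fcgr1, Fcer1g, Tyrobp and Lilrb4a), where the median over all genes was −0.55. Without a filter edgeR called 305 of 34257 genes higher, and most of its calls were lower. The count of receptor genes at an unadjusted edgeR p under 0.05 was 7 to 8 and their median 0.73 to 0.92 with each library left out, and 6 with a median of 0.75 over protein-coding transcripts. Of all tested genes, 3.23 to 9.14% were higher at this p with each library left out, and 7.26% over protein-coding transcripts. The remaining alternatives gave a count of 8, with medians from 0.72 to 0.86 and of 0.92 without a filter. In these, 3.63 to 6.72% of all genes in the fit were higher at an unadjusted p under 0.05.

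The labels number the replicates 1 to 3 in both groups. Libraries of equal number had deviations correlated at 0.475, −0.048 and 0.391, and those of unlike number at −0.518 to 0.1. Replicates 1 and 3 correlated best with their own number. The labels give no pairing, and whether equal numbers share a batch cannot be told from these values. With the replicate block edgeR called 0 genes, 8 receptor genes had an unadjusted p under 0.05 and the median was 0.78. Of all tested genes, 6.02% were higher at this p with the block. Depth limits little for these genes, of which the fewest counts were 58.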

Other observations

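The 5 genes outside the list whose log2 CPM over the 6 libraries was most like the mean profile of the 10 receptor genes were Ugdh (Pearson r = 0.999), Aspm (0.998), Bmp2k (0.994), Mlkl (0.993) and Ufm1 (0.992). These values describe 6 libraries that fall into 2 groups and carry no test. Ugdh, which makes the UDP-glucuronate used for hyaluronan and other glycosaminoglycans, stood at 23.5, 21.9 and 26.7 CPM with LGK-974 and 16.5, 18.3 and 15.2 CPM with DMSO. Aspm, a mitotic spindle gene, stood at 20.96, 18.01 and 24.99 CPM with LGK-974 and 11.9, 13.7 and 10.9 CPM with DMSO. Mlkl, the effector of necroptosis, stood at 14.6, 13.9 and 17.8 CPM with LGK-974 and 9.35, 10.2 and 8.47 CPM with DMSO. All 5 lay higher in every LGK-974 library, and none passed adjustment in edgeR (adjusted p = 0.368 for each).

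Among the 10 receptor genes, the 45 pairs correlated over the 6 libraries with r from −0.66 to 0.99 and a median of 0.74. The lowest value was that of Tyrobp with Cd300lf, whose highest level was in DMSO replicate 1.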
